A study of Mus musculus with 18 samples.

Results

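Mouse embryonic stem cells were compared with the Msx1-positive cells sorted from embryoid bodies at day 8 of differentiation, across all gene rows of 1 count table. The members were chosen by column: 2 libraries of day 8 Msx1-positive cells against 2 libraries of undifferentiated ES cells, which makes 4 of the 18 samples of the series. The ES libraries came from Msx1-tdTomato ES cells, whose tdTomato fluorescence reports Msx1, given as wild type, untreated and grown with serum and LIF. The day 8 cells were derived from ES cells with inducible overexpression of Dlx2. They were grown as hanging-drop embryoid bodies with doxycycline at 1 µg/ml and sorted by flow cytometry on the reporter. As labelled, the genotype, doxycycline, embryoid body culture and sorting all differ between the groups, so their parts in a difference cannot be told apart. The same table holds 2 libraries each of day 8 Msx1-negative, day 16 Msx1-positive and day 16 Msx1-negative cells, which entered the fit, and the first 2 of these groups serve here for comparison. The labels name 2 samples per group without saying that they came from separate cultures, so p-values measure the spread between these samples, which may be technical.

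ES cells are held in the pluripotent state by a network of transcription factors centred on Pou5f1 (Oct4), Sox2 and Nanog, helped in serum culture by the cytokine LIF through Stat3. Ectomesenchyme is the connective tissue of the face and teeth that derives from cranial neural crest. It is patterned by homeodomain factors of the Dlx, Msx, Prrx and Lhx families and gives rise to dental mesenchyme, bone and cartilage. Dlx factors are also known for specifying GABAergic interneurons in the ventral forebrain.

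Sequences upstream of 5 genes are shown because the genes mark the 2 ends of the comparison and hold one of 2 short motifs there. The motifs searched were TAATTA, the core recognised by many homeodomain proteins and its own reverse complement, and ATGCAAA, part of the octamer recognised by POU factors such as Pou5f1. They do not overlap in sequence. Both strands of the 250 bases before each start site were read (RefSeq, GRCm38.p6). Capitals mark the motif. Prrx1 and Krt25 were high at day 8 and hold TAATTA, 173 and 131 bases before the start. Tdgf1 was high in ES cells and also holds TAATTA, 194 bases before the start. Sox2 and Nanog were high in ES cells and hold ATGCAAA, at 99 bases and, on the reverse strand as TTTGCAT, at 75 bases. The stretches lie at chr1:163313711-163313900 on the minus strand, chr11:99322952-99323201 on the minus strand, chr9:110946159-110946408 on the minus strand, chr3:34649745-34649994 on the plus strand and chr6:122707239-122707488 on the plus strand. The Prrx1 stretch is 190 bases, ending where an annotated exon begins.
Prrx1: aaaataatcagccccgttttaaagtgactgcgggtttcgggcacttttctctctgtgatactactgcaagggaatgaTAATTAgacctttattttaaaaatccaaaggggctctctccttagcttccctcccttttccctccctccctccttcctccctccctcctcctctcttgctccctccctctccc
Krt25: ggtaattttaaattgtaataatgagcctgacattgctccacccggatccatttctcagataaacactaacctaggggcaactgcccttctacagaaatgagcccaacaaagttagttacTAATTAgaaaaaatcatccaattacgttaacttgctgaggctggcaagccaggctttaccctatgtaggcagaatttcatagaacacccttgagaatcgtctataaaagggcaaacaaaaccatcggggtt
Tdgf1: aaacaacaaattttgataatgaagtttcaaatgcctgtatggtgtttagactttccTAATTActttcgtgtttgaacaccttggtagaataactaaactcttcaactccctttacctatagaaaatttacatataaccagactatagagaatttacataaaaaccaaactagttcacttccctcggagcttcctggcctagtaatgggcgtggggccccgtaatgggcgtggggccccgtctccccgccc
Sox2: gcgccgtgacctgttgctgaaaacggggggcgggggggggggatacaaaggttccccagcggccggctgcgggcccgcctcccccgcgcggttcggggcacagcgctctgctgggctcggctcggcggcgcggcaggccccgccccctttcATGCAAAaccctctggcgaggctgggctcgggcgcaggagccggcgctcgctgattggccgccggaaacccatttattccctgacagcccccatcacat
Nanog: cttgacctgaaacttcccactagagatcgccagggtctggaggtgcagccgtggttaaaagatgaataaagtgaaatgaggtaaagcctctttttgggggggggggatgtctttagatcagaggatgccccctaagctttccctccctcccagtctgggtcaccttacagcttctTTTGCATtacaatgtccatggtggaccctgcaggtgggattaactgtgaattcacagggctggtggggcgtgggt
TAATTA was found in 4.90% and ATGCAAA in 4.06% of the 27025 promoters of this length. ATGCAAA was also found before genes that were high at day 8 and whose sequences are not shown, such as Rgs4, at 156 and 246 bases, and Dmp1, at 247 bases. A match is a description of the letters and not a site. Of the 22504 genes tested 14228 had a promoter in the table, under 80%, so a comparison of motif shares between gene sets was void.

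Values below are CPM (a gene's share of the library's counts, scaled to a fixed total) in replicates 1 and 2, scaled with TMM factors and not divided by gene length, so levels of different genes are not compared. Means are ± SD (n = 2), log2 changes are day 8 Msx1-positive minus ES ± SE, and a gene is called where edgeR's quasi-likelihood test gave an adjusted p under 0.05 over all genes tested. The ES libraries held 54884142 and 53797597 counts and the day 8 Msx1-positive libraries 65655287 and 107770730, and the other libraries in the fit held 56048918 to 64696124. Replicates of a group correlated at r = 0.988 (ES) and 0.991 (day 8 Msx1-positive) across genes, which are not independent replicates, and no pair of libraries was identical. Msx1, used for the sort (chr5:37820485-37824583), stood at 0.212 and 0.627 CPM in the ES libraries and 40.9 and 46.8 in the day 8 libraries, a check of the sort and not a result. Dlx2 (chr2:71543408-71546754), the overexpressed gene, stood at 1137 and 1269.8 CPM at day 8. It also stood at 219 and 222 CPM in the ES libraries labelled wild type, where Dlx1, its neighbour in the genome, was at 0.0772 and 0.0784, Dlx5 at 0.116 and 0 and Dlx6os1 at 0. The counts do not separate introduced from endogenous Dlx2, and whether the ES cells also carry the introduced gene was not tested, so the labelled difference in genotype and the change of Dlx2 below carry that doubt.

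The labelled cell types were checked against markers. Summed over 5 ES cell markers, ES libraries held 2607 and 2636 CPM and day 8 libraries 656 and 665, and all 5 were called lower. Summed over 6 mesenchyme markers, ES libraries held 10.1 and 8.76 CPM and day 8 libraries 1891 and 2138, and all 6 were called higher. Day 8 Msx1-negative cells held 2222 and 2180 CPM of the ES cell markers and 60.9 and 59.1 of the mesenchyme markers. Sums for 5 other cell types follow, day 8 against ES libraries. Neural crest markers (5) held 10.6 and 13.0 against 4.55 and 3.33 CPM, 3 called higher and 1 lower. Visceral endoderm markers (6) held 17.1 and 20.2 against 3.95 and 3.71, 4 higher and 0 lower. Blood markers (6) held 9.82 and 9.55 against 7.79 and 7.06, 3 higher and 1 lower. Cardiac markers (5) held 9.41 and 10.7 against 5.92 and 5.49, 2 higher and 0 lower. Trophoblast markers (4, of which 3 were tested) held 6.27 and 4.92 against 0.193 and 0.137, 2 higher and 0 lower. Neuron and endothelium markers were lower in sum than in ES cells, at 148 and 144 against 399 and 413 CPM and at 81.2 and 82.7 against 129.7 and 124 CPM. Single markers went both ways: 1 of 5 neuron markers was called higher and 2 lower, and 3 of 6 endothelium markers were called higher and 2 lower. The part of other cell types in the results was not tested, and in bulk libraries fewer cells of a type and less RNA per cell cannot be told apart.

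Most of the measured transcriptome differed between the groups. Of 22504 genes, 7784 (34.6%) were higher in day 8 Msx1-positive cells and 6059 (26.9%) were lower, 61.5% in all. The 2 libraries of one group lay wholly above or below the 2 of the other in 79.8% of genes, so such a separation is common to most genes and is not pointed out gene by gene. With a log2 change of at least 1 as well, 5024 (22.3%) were higher and 1947 (8.65%) lower. The median log2 change over all genes was 0.11, against which list medians below are set. It was 0.30 when libraries were scaled by their totals alone, a shift of all genes upward that also moved the share of calls that were higher from 56.2% to 65.8%. There were 769 genes among the higher calls with no count in either ES library, and 11 lower genes with no count in either day 8 library. For such genes the ratio is given as a lower bound against 3 counts over the group, and for 1 to 3 counts as a ratio with its 95% counting interval, which covers counting error only. Genes with no ES count passed the filter on low counts only through other groups, so in the lists below they could rise but not fall.

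**Figure D1:**
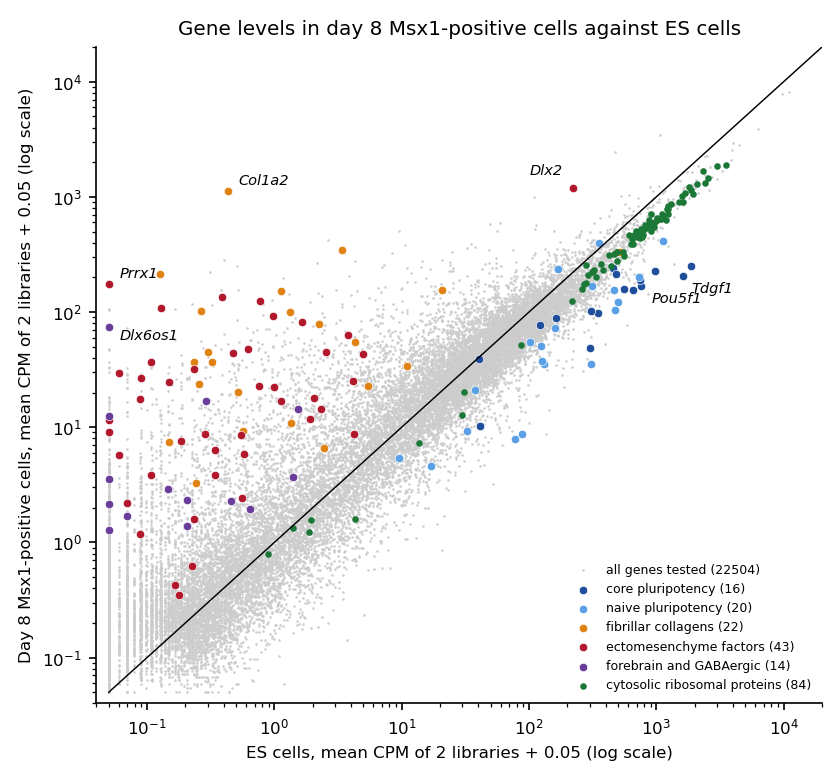
Mean CPM + 0.05 of each of the 22504 genes tested in ES cells (x axis) and day 8 Msx1-positive cells (y axis), both on log scales, with 6 gene lists coloured and the diagonal marking equal levels. Ectomesenchyme factors, collagens and forebrain genes lie above the diagonal with few exceptions, and pluripotency and ribosomal protein genes mostly below it.

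Pluripotency genes fell together but stayed measurable at day 8. Of 16 core pluripotency genes 15 fell and none rose, with a median log2 change of -1.90. Pou5f1 (chr17:35506018-35510772) went from 749.6 and 773 to 163 and 172 CPM, a log2 change of -2.18 ± 0.054. Sox2, its partner on DNA, went from 646 and 656 to 149.5 and 158 CPM (-2.08 ± 0.061). Nanog, a homeodomain factor of the same network, went from 332 and 364 to 105 and 90.8 CPM (-1.83 ± 0.073). In these 3 genes both ES libraries were high and both day 8 libraries low, a separation that 79.8% of all genes tested showed in one direction or the other. Tdgf1, the Nodal co-receptor Cripto, had the smallest p of the list, at 1601 and 1629 CPM in ES cells and 209 and 199 at day 8 (-2.99 ± 0.054). The exception was Lin28b, a regulator of let-7 microRNAs, at 38.1 and 42.5 CPM in ES cells and 37.7 and 39.6 at day 8, where the libraries overlapped (adjusted p = 0.493, edgeR).

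Of 20 naive pluripotency genes 18 fell and 1 rose, with a median of -1.66. Fgf4, the autocrine growth factor that primes ES cells for differentiation, went from 301 and 315 to 35.4 and 34.8 CPM (-3.13 ± 0.06), and Nr5a2, a nuclear receptor, from 84.8 and 91 to 8.82 and 8.69 CPM (-3.33 ± 0.075). Klf4 went from 479 and 462 to 101 and 106 CPM (-2.18 ± 0.059) and Esrrb from 753 and 716 to 200.2 and 207 CPM (-1.85 ± 0.053). Stat3, the transducer of LIF, was the riser, at 172 and 166 CPM in ES cells and 229 and 241 at day 8 (0.48 ± 0.054), and Spp1 was not called (adjusted p = 0.0832). The count of risers was 2 with totals-only scaling, with no filter on low counts and without the second day 8 library.

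Among 9 LIF signalling genes 4 rose and 5 fell. Socs3, the feedback inhibitor that Stat3 induces, stood at 271 and 258 CPM in ES cells and 30.7 and 30.3 at day 8 (-3.11 ± 0.062). The kinase gene Pim3 went from 604 and 571 to 72.1 and 81.2 CPM (-2.94 ± 0.07), and the receptor gene Lifr from 113 and 114 to 29.2 and 37.5 CPM (-1.76 ± 0.09). Jak1 rose from 73.2 and 72.7 to 137 and 149 CPM (0.97 ± 0.063), as did Il6st (gp130), the shared receptor subunit (0.64 ± 0.07). Of 17 genes of the formative and primed states 8 rose and 7 fell (median 0.47). Fgf5, which marks the epiblast after implantation, rose from 0.405 and 0.353 to 7.96 and 7.86 CPM (4.38 ± 0.19), Sall2 by 3.31 ± 0.097 and Zic2 by 2.0 ± 0.11, while Grhl2 (-2.19 ± 0.078) and Etv4 (-1.33 ± 0.058) fell.

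Ectomesenchyme factors rose almost as a block. Of 43 genes of the list, 41 transcription factors and 2 receptors, 42 rose and none fell, with a median log2 change of 5.02. Tbx22 alone was not called, with under 1 CPM in every library of both groups. The list was drawn up with earlier results of these data known, so its count is a description. It holds Msx1, the gene of the sort, and Dlx2, the overexpressed gene, and without them 40 of 41 rose.

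Prrx1, a paired-related homeodomain factor of limb and facial mesenchyme, had no count in either ES library and stood at 175 and 176 CPM at day 8, at least 6025-fold higher. Dlx1 rose from 0.0772 and 0.0784 to 103 and 115 CPM (10.42 ± 0.16), Dlx5 from 0.116 and 0 to 34.9 and 39 CPM (9.26 ± 0.33), and Dlx6 had no ES count and 12 and 11 CPM at day 8, at least 390.4-fold higher. Dlx2 itself changed less, by 2.45 ± 0.08 from its level in ES cells. The Dlx genes sit in convergent pairs, Dlx1 with Dlx2 and Dlx5 with Dlx6, and both members of each pair were above their ES level. Msx2 rose from 1.37 and 1.84 to 79.1 and 84.9 CPM (5.67 ± 0.13).

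Factors that place the jaw and oral region rose too. Pitx1 rose from 0.251 and 0.431 to 125 and 145 CPM (8.62 ± 0.15) and Barx1, a factor of molar-forming mesenchyme, from 1.27 and 0.588 to 86 and 98.4 CPM (6.62 ± 0.23). Hand2, which patterns the lower jaw, had 1 count in the ES libraries and stood at 26.3 and 32.7 CPM at day 8, a ratio of 3108 (558 to 122788). Lhx8 rose from 0.0772 and 0 to 17.5 and 17.5 CPM (8.74 ± 0.35), and its relative Lhx6 from 2.16 and 1.55 to 10.8 and 12.8 (2.67 ± 0.20). Osr1 had no count in ES or day 8 Msx1-negative cells and 8.94 and 9.12 CPM in the positive cells, at least 310.1-fold above ES. Twist1, a bHLH factor of crest mesenchyme, rose from 4.98 and 4.9 to 38.8 and 47.3 CPM (3.13 ± 0.12). Pdgfra, the PDGF receptor that marks mesenchyme, rose from 0.791 and 0.647 to 120.5 and 129 CPM (7.44 ± 0.11), and the endothelin receptor gene Ednra from 0.0964 and 0.274 to 31.8 and 32.7 (7.43 ± 0.17).

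**Figure D2:**
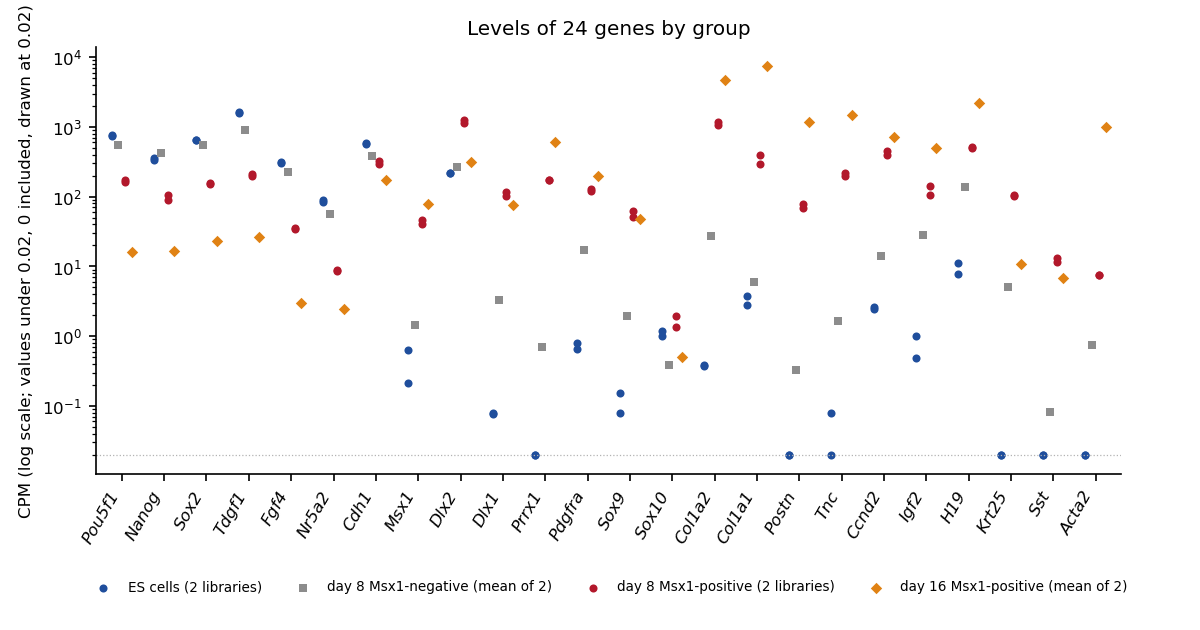
CPM on a log scale for genes named in the text, with each ES library (blue) and each day 8 Msx1-positive library (red) as a point and the means of day 8 Msx1-negative (grey) and day 16 Msx1-positive (orange) libraries; genes at or near 0 are drawn on the dotted line. Pou5f1 falls from 749.6 and 773 to 163 and 172 CPM, and Prrx1 rises from 0 to 175 and 176 CPM.

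Of 19 genes of the dental mesenchyme and dentine list 17 rose and 1 fell, with a median of 7.34, or 6.63 with genes at 0 counts in ES cells set to their bound. Dmp1 and Inhba, a dentine matrix protein gene and the activin A subunit gene, had no count in ES cells and stood at 16 and 17 CPM (Dmp1) and 17 and 16.4 CPM (Inhba) at day 8, at least 569.7-fold and 570.0-fold higher. Tnc, the matrix glycoprotein tenascin C, rose from 0 and 0.0784 to 197 and 218 CPM (12.31 ± 0.23). Amtn and Ambn encode proteins best known from enamel-forming epithelium, and they stood at 35.1 and 30.2 CPM (Amtn) and 16.1 and 14.2 CPM (Ambn) against 0 in ES cells, at least 1100.5-fold and 512-fold higher. Bmp4, an inducer of tooth development, fell, from 45.7 and 41.4 to 13.5 and 12.1 CPM (-1.77 ± 0.089). It stood at 13 ± 0.978 CPM in day 8 Msx1-negative cells as well. Dspp, the main dentine gene, reached only 0.251 and 0.358 CPM, from 0.

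Of 16 osteoblast and mineralisation genes 13 rose and 2 fell (median 5.16, or 4.69 at the bound). Alpl, a phosphatase of both ES cells and bone, fell from 126 and 113 to 71 and 70.8 CPM (-0.76 ± 0.071). Atf4 fell as well (-0.69 ± 0.062). Of 18 cartilage genes 14 rose and 1 fell (median 2.76). Sox9, which commits cells to cartilage, rose from 0.154 and 0.0784 to 51 and 62.7 CPM (8.91 ± 0.20), Hapln1 from 0.116 and 0 to 31.9 and 32.8 CPM (9.07 ± 0.30) and Col11a1 by 4.34 ± 0.11. Acan, the aggrecan gene of mature cartilage, stood at 26.1 and 25.6 CPM in ES cells and 20.4 and 26.7 at day 8 and was not called (adjusted p = 0.343). The single faller was Matn3 (-1.0 ± 0.19), and there were 2 fallers by DESeq2 and without the second day 8 library.

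Of 19 neural crest genes 13 rose and 3 fell (median 2.43), and the group was not uniform. Sox10, the factor that keeps migrating crest cells multipotent, stood at 1.2 and 1.0 CPM in ES cells and 1.34 and 1.98 at day 8 and was not called (adjusted p = 0.181). Foxd3, an early crest and ES cell factor, fell from 1.58 and 1.14 to 0.14 and 0.0872 CPM (-3.60 ± 0.50). Tfap2a rose from 1.74 and 1.2 to 6.95 and 8.8 CPM (2.43 ± 0.20). Ret, the GDNF receptor gene, rose from 5.67 and 5.57 to 81.2 and 90.9 CPM (3.94 ± 0.10) and Ets1 from 1.91 and 1.0 to 33.1 and 33.9 (4.52 ± 0.16). The glial and pigment cell genes Erbb3 (-0.77 ± 0.068) and Mitf (-1.39 ± 0.14) fell.

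The extracellular matrix program was measured across 5 lists, and in each most members rose. Of 22 fibrillar and associated collagen genes 21 rose and 1 fell, with a median of 5.82. Col1a2 (chr6:4504814-4541544), the α2 chain of type I collagen, rose from 0.386 and 0.372 to 1058 and 1169 CPM (11.51 ± 0.12), the smallest p of all genes tested. Col1a1, which encodes the α1 chain, rose from 3.8 and 2.84 to 289.8 and 395 CPM (6.69 ± 0.22). Col5a2 (6.31 ± 0.11), Col6a1 (8.89 ± 0.15) and Col6a2 (5.18 ± 0.093) rose with them. Col18a1, a basement membrane collagen already abundant in ES cells, fell from 524 and 514 to 314 and 353 CPM (-0.64 ± 0.063).

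Of 22 collagen processing genes 20 rose and 1 fell (median 2.12). Bmp1, the procollagen C-proteinase gene, rose by 5.75 ± 0.11, the crosslinking enzyme gene Lox by 7.25 ± 0.18 and the collagen chaperone gene Serpinh1 from 119 and 109 to 570.3 and 579 CPM (2.33 ± 0.058). Adamts14 fell (-1.29 ± 0.11). Of 26 elastic fibre and matricellular genes 24 rose and 2 fell (median 3.74). Tgfbi rose from 11.5 and 9.61 to 378 and 382 CPM (5.17 ± 0.079) and Thbs1, thrombospondin 1, from 0.887 and 0.941 to 121 and 135 CPM (7.13 ± 0.13). Postn, periostin, had no ES count and stood at 77.5 and 69.1 CPM at day 8, at least 2478-fold higher. Fn1, fibronectin, fell from 1883 and 1717 to 1012 and 1198 CPM (-0.70 ± 0.087), and Mfap5 fell (-1.70 ± 0.21).

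Of 11 small leucine-rich proteoglycan genes 9 rose and none fell, and 5 rose when genes had to reach 1 CPM in at least 4 libraries. Bgn, biglycan, rose by 7.44 ± 0.11, from 1.02 and 1.24 to 196 and 197 CPM. Lum stood at 3.78 and 3.47 CPM at day 8 against 0 in ES cells. Of 27 matrix proteolysis genes 25 rose and none fell (median 3.11), with Timp2 at 5.57 and 6.65 against 124 and 130.2 CPM (4.38 ± 0.079) and Mmp2 at 21.9 and 18.6 against 173 and 178 CPM (3.11 ± 0.076). Inhibitors and proteases thus moved in the same direction, 7 of 7 and 18 of 20. Basement membrane genes were split, with 13 of 20 higher and 5 lower (3 lower without the first ES library or without the first day 8 library). Col4a1 rose by 2.21 ± 0.066 and Lama4 by 5.89 ± 0.13, while Lama1 (-0.99 ± 0.16) and Nid2 (-1.18 ± 0.067) fell.

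Mesenchymal adhesion genes rose throughout, while epithelial ones fell in part. All 25 mesenchymal adhesion and EMT genes tested rose, with a median of 3.32. Cdh11, a mesenchymal cadherin, rose from 0.424 and 0.51 to 149 and 161 CPM (8.37 ± 0.11), Cdh2 (N-cadherin) from 4.17 and 5.02 to 66.8 and 70.4 (3.90 ± 0.087) and Vim (vimentin) from 59 and 58.8 to 557 and 618 (3.32 ± 0.066). Among the EMT factors Zeb2 rose by 5.31 ± 0.16 and Snai2 by 5.59 ± 0.32. Of 31 epithelial adhesion genes 18 fell and 6 rose (median -0.54). Cdh1 (E-cadherin) fell from 588 and 567 to 296 and 330.0 CPM (-0.88 ± 0.06) and Epcam from 248 and 249 to 123 and 120.3 (-1.03 ± 0.056), so that both were still above 100 CPM at day 8. Dsp, desmoplakin, rose from 20.5 and 20.5 to 243 and 318 CPM (3.77 ± 0.17).

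Keratin genes of simple epithelia rose in the same libraries. Of 17 surface ectoderm and epidermis genes 13 rose and 3 fell. Krt8 rose from 13.8 and 14.3 to 242 and 246 CPM (4.12 ± 0.06) and its partner Krt18 from 13.5 and 14.8 to 145 and 129 (3.27 ± 0.085). Both were also above ES in day 8 Msx1-negative cells, at 161 ± 2.29 and 109 ± 7.18 CPM. Krt25, a keratin of the inner root sheath of hair, had no ES count and stood at 103 and 106 CPM at day 8, at least 3600.2-fold higher. Markers of stratified epidermis stayed under 2 CPM: Krt5 at 0.894 and 0.349 CPM, Krt14 at 1.12 and 1.34 and Trp63 at 0.419 and 0.523 at day 8. Sfn fell from 217 and 215 to 34.7 and 32.4 CPM (-2.69 ± 0.066).

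**Figure D3:**
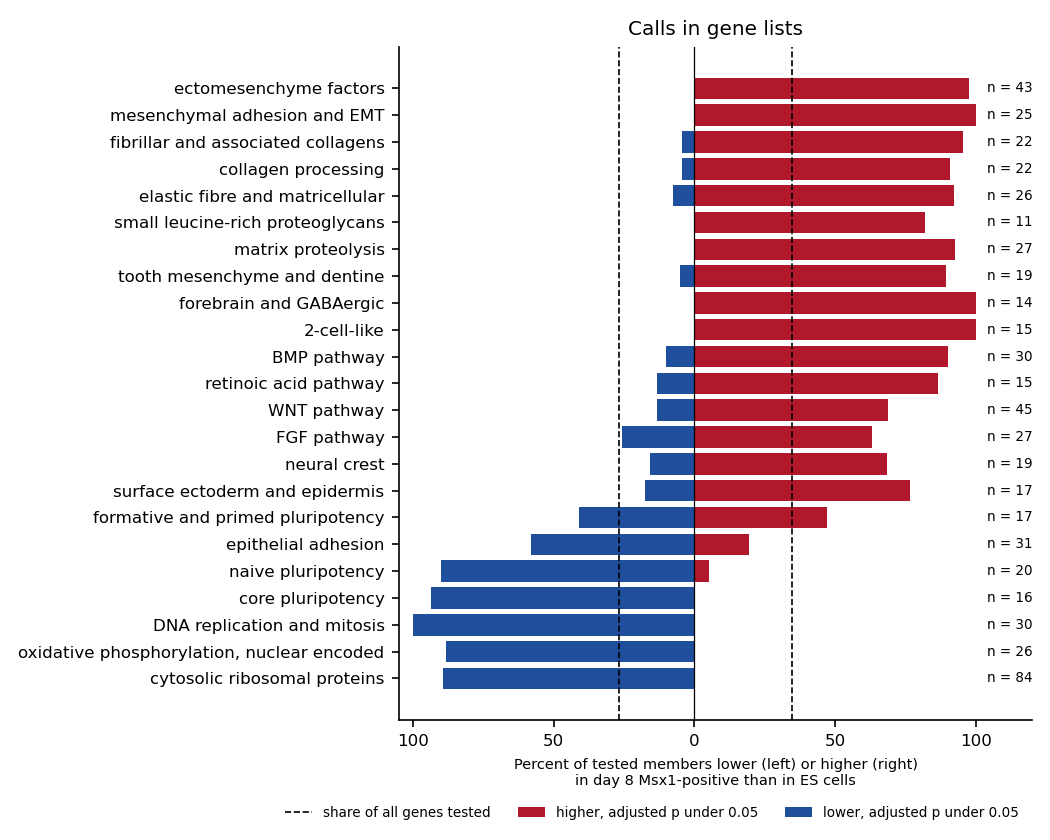
Percent of the tested members of each gene list called higher (right, red) or lower (left, blue) in day 8 Msx1-positive than in ES cells, with dashed lines at the shares of all genes, 34.6% higher and 26.9% lower. Mesenchymal and matrix lists extend far right of the line, and core and naive pluripotency, cell division and ribosomal lists far left.

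Most BMP signalling genes were higher, as 27 of 30 rose and 3 fell (median 2.58). One target of the list is Msx1, the gene of the sort, and without it 26 of 29 rose. Among 8 ligands 7 rose, led by Bmp2, from 0.463 and 0.176 to 8.94 and 9.62 CPM (4.85 ± 0.21), with Bmp4 the exception given above. In sum the ligands held 56.1 and 51.7 CPM in ES cells and 50.6 and 53.3 at day 8, with overlapping libraries. All 4 receptors rose, Acvr1 from 6.91 and 7.06 to 45.4 and 47.7 CPM (2.74 ± 0.082). All 9 antagonists rose as well, Bmper from 0.116 and 0 to 21.2 and 22.2 CPM (8.49 ± 0.29), Nog from 0.0772 and 0.333 to 6.39 and 9.03 (5.23 ± 0.37) and Fstl1 from 54.8 and 54.8 to 301 and 286 (2.42 ± 0.058). Of 9 targets 7 rose, among them Id3, from 20.1 and 16.5 to 173 and 162 CPM (3.20 ± 0.094), and Smad6 (2.76 ± 0.091), and 2 fell. Id1 fell slightly, from 95.8 and 88 to 76.8 and 75.8 CPM (-0.27 ± 0.076), a call lost with scaling by totals alone (-0.0813, adjusted p = 0.373) and without the first ES library (adjusted p = 0.081), and Smad7 from 215 and 205 to 92.4 and 115 CPM (-1.02 ± 0.089).

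Of 22 genes of the TGF-β, activin and Nodal pathway 15 rose and 5 fell. The TGF-β ligand genes rose: Tgfb1 from 24.6 and 21.8 to 79 and 87.1 CPM (1.84 ± 0.08), Tgfb2 from 0.579 and 0.608 to 55.3 and 59 (6.59 ± 0.13) and Tgfb3 from 0.0772 and 0.0784 to 13.1 and 12.1 (7.30 ± 0.21). Nodal, the ligand of early embryo patterning, fell from 49.6 and 52.5 to 26.9 and 26.9 CPM (-0.92 ± 0.07), and its relative Gdf3 from 74.1 and 70.5 to 24.8 and 24.7 (-1.55 ± 0.073). The Nodal antagonist genes Lefty1 (0.90 ± 0.085) and Lefty2 (0.38 ± 0.051) rose. Of the receptors, Tgfbr2 rose from 2.53 and 2.25 to 49.8 and 57.5 CPM (4.49 ± 0.10) and Tgfbr1 by 2.16 ± 0.06, and Acvr1b was not called, at 79.3 and 70.0 CPM in ES cells and 70.6 and 71.4 at day 8 (adjusted p = 0.357).

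Of 27 FGF pathway genes 17 rose and 7 fell. Besides Fgf4, the ligand gene Fgf17 fell (-2.16 ± 0.13), and 8 of 12 ligands rose, Fgf1 from 1.12 and 1.06 to 16.7 and 14.4 CPM (3.83 ± 0.16). Fgfr1 rose from 107 and 105 to 281 and 304 CPM (1.46 ± 0.056), Fgfr2 by 2.47 ± 0.11, and Fgfr4 fell (-1.40 ± 0.14). Feedback genes went both ways, 5 up and 4 down: Spry1 rose from 16 and 15.3 to 135 and 143 CPM (3.15 ± 0.071), and Spry4 fell from 434 and 404 to 139 and 158 (-1.50 ± 0.072).

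Of 45 WNT pathway genes 31 rose and 6 fell (median 2.03). Wnt5a, a ligand of the β-catenin-independent branch, rose from 0.463 and 1.06 to 112 and 121 CPM (7.26 ± 0.27), and its receptor gene Ror1 from 0.347 and 0.235 to 12.5 and 13.4 (5.47 ± 0.16). Fzd2 rose from 6.98 and 5.65 to 87.6 and 99.8 CPM (3.89 ± 0.11), while Fzd5 fell from 187 and 199 to 36.2 and 38.9 (-2.36 ± 0.079). The secreted antagonist gene Dkk1 rose from 0.0772 and 0 to 203 and 202 CPM, a log2 change fitted from 4 ES counts of 12.28 ± 0.18, and Frzb, with 2 ES counts, stood at 28.8 and 28.8 CPM, a ratio of 1480.1 (409.5 to 12225). Of 8 target genes 4 rose and 2 fell. Notum, which is also a feedback inhibitor, fell (-2.53 ± 0.12), and Lef1 was not called, at 6.52 and 7.14 CPM in ES cells and 6.07 and 6.09 at day 8 (adjusted p = 0.284).

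Of 13 hedgehog pathway genes 7 rose and 3 fell. The co-receptor gene Boc rose from 1.54 and 2.25 to 52.8 and 61.6 CPM (4.91 ± 0.13), Gas1 from 2.01 and 2.04 to 30.0 and 33.3 (3.97 ± 0.10) and Gli3, mainly a repressor, from 17.9 and 15.3 to 90.1 and 103 (2.54 ± 0.087). Gli1, a standard readout of the pathway, fell from 22.2 and 23.8 to 2.56 and 3.06 CPM (-3.02 ± 0.14). Ptch1, the other standard target, was at 73.5 and 66.5 CPM in ES cells and 64.3 and 75.8 at day 8, with overlapping libraries (adjusted p = 0.982). Shh had 2 ES counts and 0.391 and 0.331 CPM at day 8.

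All 8 retinoic acid enzymes rose, those that make retinoic acid and those that degrade it. Cyp26b1, a degrading enzyme gene, rose from 0.559 and 0.294 to 33.7 and 37.5 CPM (6.37 ± 0.18) and Cyp26a1 from 0.135 and 0.392 to 12.7 and 11.3 (5.51 ± 0.23), and the synthesising Aldh1a3 rose from 1.5 and 3.14 to 16.9 and 18.6 CPM (2.94 ± 0.27). Of the receptor genes Rarb rose by 4.69 ± 0.49 and Rarg fell from 322 and 329 to 139 and 139.7 CPM (-1.23 ± 0.055). Of 11 IGF pathway genes 10 rose and none fell. Igfbp4 rose from 8.7 and 7.84 to 322 and 332 CPM (5.31 ± 0.072), Igfbp5 from 0.424 and 0.274 to 272 and 291 (9.64 ± 0.15) and Igfbp3 from 12.3 and 11 to 219 and 214 (4.21 ± 0.073). Of 10 PDGF and endothelin genes 9 rose, Pdgfrb from 2.3 and 1.8 to 47.6 and 53.8 CPM (4.63 ± 0.12), and Pdgfa fell (-0.52 ± 0.072). Notch genes moved little, with 7 of 14 higher and 2 lower and a median of 0.24. Hey1 rose from 2.66 and 1.74 to 12.5 and 11.7 CPM (2.46 ± 0.18).

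Hox genes, which give cells their position along the body axis and are silent in most ectomesenchyme of the jaws, rose from near 0 to low levels. In clusters A, B, C and D, 10 of 11, 10 of 10, 7 of 9 and 7 of 9 genes tested rose and none fell. With a minimum of 1 CPM in at least 4 libraries, 4 genes of cluster C and 3 of cluster D rose. Hoxb9 had the largest gain in CPM, from 1.6 and 0.98 to 28.5 and 30.4 (4.51 ± 0.16), and Hoxb4 rose from 0.309 and 0.0392 to 7.34 and 8.42 (5.48 ± 0.34). Apart from these, Hoxd8 and Hoxb13, all stayed under 4 CPM in mean, such as Hoxa3 at 3.16 and 3.76 CPM from 0.0772 and 0.118 and Hoxa5 at 2.23 and 2.16 from 0 and 0.157.

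Genes of cell division and of protein synthesis fell together by moderate amounts. All 30 genes of DNA replication and mitosis fell, with a median log2 change of -0.79 and changes over 1 in 2 of them. Ccnb1 fell from 517 and 503 to 262 and 254 CPM (-0.98 ± 0.051), Top2a from 988 and 1027 to 497 and 522 (-0.98 ± 0.054) and Mcm3 from 568 and 540.3 to 303 and 304 (-0.87 ± 0.051). All 7 CDK inhibitor genes rose, Cdkn2a from 11.4 and 12.2 to 39.6 and 43.9 CPM (1.83 ± 0.077) and Cdkn1a from 89 and 89 to 205 and 195 (1.16 ± 0.055). The cyclins moved in both directions: Ccne1 fell from 315 and 319.8 to 85.5 and 90.2 CPM (-1.85 ± 0.055) and Ccnd3 and Ccnd1 fell (-0.88 ± 0.056 and -0.71 ± 0.058), while Ccnd2 rose from 2.66 and 2.47 to 398 and 451 CPM (7.37 ± 0.094).

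Of 84 cytosolic ribosomal protein genes 75 fell and none rose, with a median of -0.65. Their summed level went from 73227 and 73816 CPM in ES cells to 47432 and 44514 at day 8. Of 26 nuclear-encoded oxidative phosphorylation genes 23 fell and none rose (median -0.44). Of 13 glycolytic enzyme genes 9 fell and 1 rose, with Hk2 at 615 and 608 against 179 and 201 CPM (-1.69 ± 0.073) and Pfkp at 602 and 593 against 196 and 203 CPM (-1.58 ± 0.059). The falls are shares of the library: CPM does not show how much RNA a cell holds.

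Imprinted genes, many of which control fetal growth, held several of the largest gains. Of 19 tested 14 rose and 3 fell. H19 rose from 7.72 and 11.2 to 511 and 500.3 CPM (5.74 ± 0.12) and Igf2, its neighbour expressed from the other parental copy, from 0.482 and 1.0 to 107 and 140.1 (7.38 ± 0.29). Mest rose from 111 and 106 to 995 and 998 CPM (3.20 ± 0.06), Peg3 from 477 and 468 to 2269 and 2584 (2.36 ± 0.074) and Plagl1 from 17.2 and 16.1 to 233 and 243 (3.84 ± 0.069). Phlda2, a growth-restraining gene, fell from 59.6 and 56.2 to 10.5 and 8.57 CPM (-2.61 ± 0.12). The counts do not tell the parental copies apart.

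Of 9 DNA methylation genes 7 fell and 2 rose. Tet1, an enzyme that oxidises methylcytosine, fell from 858 and 847 to 132 and 153 CPM (-2.58 ± 0.072), while its relative Tet3 rose from 21.4 and 21.6 to 90.5 and 110.2 (2.22 ± 0.10). Dnmt3l, a cofactor of de novo methylation, fell from 549 and 561 to 151 and 164 CPM (-1.82 ± 0.058), and Dnmt3a rose (0.75 ± 0.066). Of 16 nuclear lamina and LAP2 partner genes 8 rose and 7 fell. Tmpo, which encodes LAP2, went from 231 and 245 to 218 and 217 CPM, a log2 change of -0.13 ± 0.052 (adjusted p = 0.038). The call of Tmpo was lost without the second ES library, without either day 8 library, with only the 4 compared libraries, with no filter on low counts and with the replicate number as a block, and its sign turned with scaling by totals alone (0.0561). Lmnb1 fell from 495 and 505 to 273 and 287 CPM (-0.84 ± 0.057) and Hmgn5 rose from 20.6 and 24.4 to 61.5 and 66.7 (1.51 ± 0.086).

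All 14 forebrain and GABAergic genes tested rose, with a median of 5.48, or 5.10 at the bound. Of these, 5 had no ES count and so could not fall, and 12 were also called higher than ES in day 8 Msx1-negative cells. Dlx6os1 (Evf2), a long noncoding RNA of the Dlx5 and Dlx6 locus, had no ES count and stood at 74.4 and 72.5 CPM, at least 2510.2-fold higher. Sst, somatostatin, stood at 13.1 and 11.7 CPM from 0, at least 421-fold higher, and Gad1, which makes GABA, rose from 1.62 and 1.37 to 14.2 and 14.7 CPM (3.27 ± 0.19). Nkx2-1 reached 3.1 and 3.85 CPM from 0 and Gad2 2.46 and 2.15 CPM from 0.0386 and 0.274, so most of the group stayed low. General neural genes were mixed, with 9 of 20 higher and 5 lower: Nes rose from 14.8 and 14.5 to 42.4 and 48.1 CPM (1.63 ± 0.095), while Stmn2 fell from 298 and 317 to 63.8 and 57.4 (-2.34 ± 0.12) and Olig2 from 45.1 and 50.2 to 5.88 and 6.48 (-2.94 ± 0.18).

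Genes of other lineages moved in both directions. Of 20 primitive streak and mesoderm genes 14 rose and 3 fell, Foxc1 from 0.0386 and 0.157 to 21.9 and 27.4 CPM (7.96 ± 0.25) and Meox1 from 0.656 and 1.22 to 9.95 and 8.98 (3.34 ± 0.22). Of 16 cardiac genes 9 rose and 3 fell, with 5 of the 6 factors higher, Mef2c from 0.193 and 0.0784 to 24.7 and 24.6 CPM (7.48 ± 0.35), and 4 of 10 contractile genes higher and 2 lower. Myh6, a heart myosin gene, was not called, at 3.47 and 2.65 CPM in ES cells and 2.72 and 3.04 at day 8 (adjusted p = 0.797). Of 19 visceral and primitive endoderm genes 12 rose and 2 fell (1 fell without the first ES library or without the first day 8 library). Dab2 rose from 1.58 and 1.39 to 39.3 and 38 CPM (4.70 ± 0.095), while Apoe fell from 1276 and 1207 to 385 and 370.4 (-1.72 ± 0.055). Among 18 smooth muscle and pericyte genes 13 rose, Tpm1 from 50.9 and 48.4 to 603 and 559 CPM (3.55 ± 0.069), Cald1 from 24.5 and 23.1 to 272 and 269 (3.50 ± 0.06) and Rgs5 from 0 and 0.118 to 34.9 and 32.4 (9.12 ± 0.27). Acta2 stood at 7.43 and 7.63 CPM from 0. Blood genes were low, with embryonic globin Hbb-bh1 at 3.35 and 2.62 CPM, but Runx1 rose from 0.752 and 0.843 to 41.8 and 48.9 CPM (5.83 ± 0.14). Of 11 skeletal muscle genes 1 rose (2 without the first ES library) and 4 fell.

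Lower bounds on a rise were given only for genes with no ES count, so they rank these genes among themselves. Genes with a few ES counts, such as Dkk1 with 4 and a log2 change of 12.28, are outside that ranking. Besides Prrx1, Krt25, Dlx6os1 and Postn, given above, the largest bounds among called genes with at least 5 CPM included Rgs4 and Pcdh7. Rgs4, a regulator of G-protein signalling, stood at 108 and 104 CPM, at least 3625-fold higher. Pcdh7, a protocadherin gene, stood at 45.5 and 49.3 CPM, at least 1639.8-fold higher. Megf10 was at least 1626-fold and Dnm3os at least 1231-fold higher. The deepest falls were of Kirrel2, from 53.7 and 50.4 to 3.27 and 3.04 CPM (-4.05 ± 0.12), and Nphs1, from 146 and 123 to 8.52 and 8.72 CPM (-3.96 ± 0.12). Both encode immunoglobulin-family adhesion proteins known from the kidney slit diaphragm, and they are neighbours in the genome. Khdc3, an oocyte and ES cell gene, was also among the deepest falls (-3.75 ± 0.17).

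In CPM the largest gains were Peg10, by 2341 CPM between means, Peg3 by 1954, Col1a2 by 1113, Dlx2 by 983 and Mest by 888. The largest losses were Eef1a1, a translation elongation factor gene, at -2912 CPM, the chaperone gene Hsp90ab1 at -2358 and mt-Co1 at -1872, which was not called with scaling by totals alone. Dppa5a, an RNA-binding protein gene of ES cells, went from 1959 and 1777 to 271 and 234 CPM. These differences favour long and abundant transcripts, as CPM is not divided by length.

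Whether the change from ES cells differed between the sorted fractions was tested by comparing Msx1-positive with Msx1-negative cells of day 8. Between the fractions 6702 of 22504 genes (29.8%) were higher in Msx1-positive cells and 5415 (24.1%) in Msx1-negative cells, 53.8% in all, and 66.3% of the calls were higher with scaling by totals alone against 55.3% with TMM. Both this comparison and the one with ES cells use the Msx1-positive libraries, so the counts are given side by side and not as support for each other. Of the 16 core pluripotency genes 15 were lower in Msx1-positive than in Msx1-negative cells. Pou5f1 was at 542 ± 3.36 CPM in the negative cells, -1.69 ± 0.053 in log2 for positive minus negative, and Nanog at 425 ± 13.2 (-2.12 ± 0.073). Of the 43 ectomesenchyme genes 41 were higher in the positive cells (39 of 41 without Msx1, on which the fractions were sorted, and Dlx2), Prrx1 against 0.698 ± 0.204 CPM (7.95 ± 0.10). Of 22 collagens 21 were higher, Col1a2 against 27.7 ± 0.53 CPM (5.33 ± 0.078). Ribosomal protein genes were lower in 76 of 84, and replication and mitosis genes in 28 of 30.

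Against ES cells the Msx1-negative cells themselves had 33.6% of genes called in either direction, with the same ES libraries as reference. Of the 5024 genes higher by at least 1 in log2 in positive cells, 2469 (49.1%) were also called higher than ES in negative cells. Of the 1947 lower by at least 1, 917 (47.1%) were also called lower. The 33.6% of all genes covers both directions together, and the share in 1 direction alone can be no larger. Some genes moved by similar amounts in both fractions. Dab2 rose by 4.70 ± 0.095 in positive and 4.74 ± 0.096 in negative cells, and the fractions differed by -0.04 ± 0.065 (adjusted p = 0.638). Col9a2 rose by 1.89 ± 0.09 and 1.94 ± 0.09, and Hmgn5 by 1.51 ± 0.086 and 1.54 ± 0.086. Gpx2, a glutathione peroxidase gene, fell in both, with log2 changes of -2.94 ± 0.21 and -2.96 ± 0.22, as did Bcl3 (-2.43 ± 0.091 and -2.39 ± 0.092). Bmp4, at 13 ± 0.978 CPM in negative cells, belongs to this group (-1.74 ± 0.09). These were taken for an adjusted p over 0.5 between fractions, which does not show that the fractions are equal.

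Other genes moved in opposite directions from ES cells in the fractions. For them the difference between the fractions is larger than either change, so its call is not separate support. Tgfb1 rose by 1.84 ± 0.08 in positive and fell in negative cells, where it stood at 6.1 ± 0.2 CPM (-1.93 ± 0.09), a difference of 3.77 ± 0.09. Eln, elastin, differed by 2.95 ± 0.13 (1.95 ± 0.12 and -1.0 ± 0.15) and Map2 by 2.08 ± 0.11. Klf2, a naive pluripotency factor, was lower in positive cells and higher in negative cells than in ES cells, at 273 ± 8.22 CPM in the negative cells (-1.28 ± 0.096 and 1.14 ± 0.094), a difference of -2.42 ± 0.098. Tcl1, which promotes ES cell renewal, was at 61.2 ± 0.303 CPM in negative cells (-2.75 ± 0.12), and Alpl at 228 ± 2.92 CPM (-1.69 ± 0.072).

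Day 16 Msx1-positive cells show the levels 8 days later. From day 8 to day 16, 4632 genes (20.6%) rose and 5557 (24.7%) fell, 45.3% in all, and the share that rose among the calls was 45.5%, against 34.1% with scaling by totals alone. Of the 16 core pluripotency genes 15 were lower at day 16, Pou5f1 at 16.2 ± 0.379 CPM (-3.37 ± 0.06 in log2), and Lin28b was higher (0.51 ± 0.07). All 22 collagens were higher, Col1a1 at 7365 ± 555 CPM (4.43 ± 0.18) and Col1a2 at 4643 ± 293 (2.06 ± 0.066). Ectomesenchyme genes were higher at day 16 in 30 and lower in 5 of 43 (29 higher and 4 lower of 41 without Msx1 and Dlx2). Prrx1 stood at 611 ± 0.771 CPM (1.80 ± 0.062), while Dlx2 stood at 315 ± 37.3 CPM, lower than at day 8 (-1.93 ± 0.078), and Dlx1 at 74.8 ± 2.8 (-0.54 ± 0.072).

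Forebrain genes went the other way, 9 of 14 lower and 2 higher at day 16, with Gad1 at 2.01 ± 0.327 CPM (-2.84 ± 0.19) and Dlx6os1 at 30.7 ± 0.536 (-1.26 ± 0.086). Krt25 fell to 11 ± 0.0967 CPM (-3.25 ± 0.10), Amtn to 3.63 ± 0.328 (-3.17 ± 0.19) and Ret to 20.6 ± 0.37 (-2.06 ± 0.09), so these 3 were highest at day 8 among ES cells, both day 8 fractions and day 16 Msx1-positive cells. Tnc, Postn and Dmp1 rose further, to 1474 ± 131, 1187 ± 36.8 and 251 ± 7.89 CPM (2.83 ± 0.10, 4.02 ± 0.19 and 3.92 ± 0.082). Acta2 rose from single digits to 1002 ± 40.9 CPM (7.05 ± 0.12), and Bmp4, which had fallen by day 8, stood at 59.5 ± 2.01 CPM (2.22 ± 0.089).

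**Figure D4:**
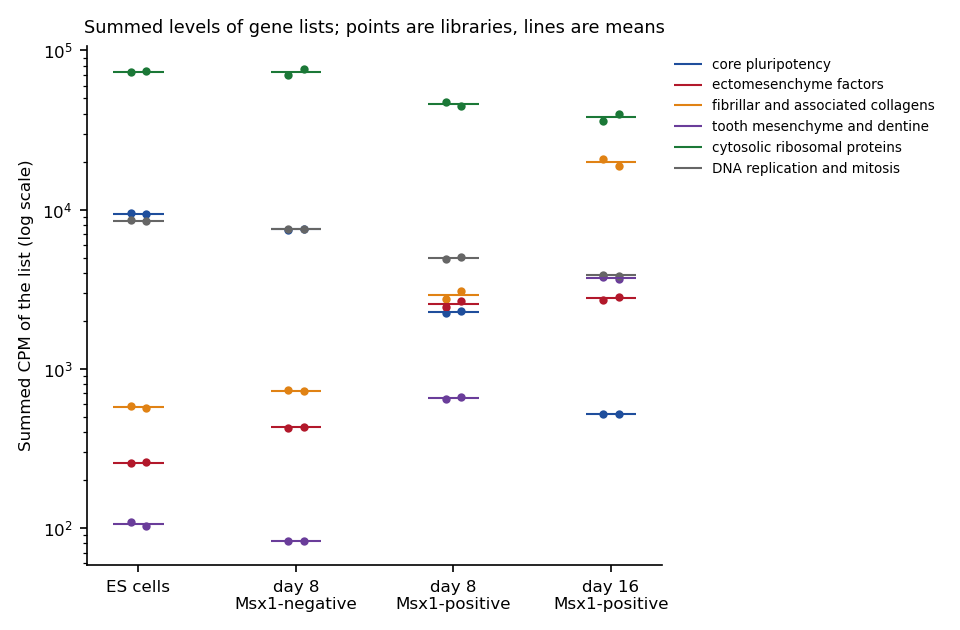
Summed CPM (log scale) of 6 gene lists in each library (points) of ES, day 8 Msx1-negative, day 8 Msx1-positive and day 16 Msx1-positive cells, with short lines at group means. Ribosomal protein genes sum to 73227 and 73816 CPM in ES cells and 47432 and 44514 in day 8 Msx1-positive cells, and collagens and dental genes are highest at day 16; in Msx1-negative cells the pluripotency points lie under those of replication and mitosis.

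The library kit does not mark strand, so reads cannot be divided between a gene and an annotated gene whose exons overlap it. Among the genes named above, the overlapping gene is another protein-coding gene for Ccnd3 (with Bysl), Col4a1 (with Col4a2), Dnmt3l (with Aire), Fgfr2 (with Ctbp2), Fn1 (with Apol7d), Gli1 (with Arhgap9), Jak1 (with Raver2), Mest (with Copg2), Nid2 (with Rtraf), Pfkp (with Pitrm1), Rarb (with Top2b) and Stat3 (with Stat5a). It is a noncoding, predicted or other gene for Bcl3, Bmp4, Ccnd1, Ccnd2, Cdkn1a, Dab2, Dlx1, Dlx6, Dnm3os, Dnmt3a, Dsp, Ednra, Eef1a1, Eln, Fgfr1, Foxd3, Fzd5, Gas1, Gli3, Grhl2, H19, Hand2, Hoxa3, Igf2, Khdc3, Krt5, Krt8, Lef1, Lhx6, Lox, Map2, Myh6, Notum, Nphs1, Pcdh7, Pdgfa, Pdgfra, Pitx1, Plagl1, Pou5f1, Runx1, Shh, Spp1, Spry1, Tfap2a, Tgfb2, Tgfb3, Thbs1, Tmpo, Tnc, Top2a, Wnt5a, Zeb2 and mt-Co1. The symbol Dlx6os1 belongs to 2 annotated genes and was not matched to either, so this antisense RNA of the Dlx6 locus was not checked for overlaps.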

How the data were processed

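RNA was measured by RNA-seq of total RNA taken up in TRI Reagent, with NEBNext Ultra libraries, per the labels' protocols. The authors deposited raw counts per gene for the 10 libraries of the day 8 and day 16 table (54114 rows, 17435 of them without a count). Listed in the submitters' processing notes are HISAT2 2.1.0, fastp 0.20.0, the GRCm38 build and DESeq2 1.18.1. Neither the program that counted reads nor its annotation is given in these sources. How reads that map to several places were counted is therefore unknown. Symbols matched GENCODE vM21 for 53224 rows.

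Counts were fitted with edgeR 4.0.16 (R 4.3.3; filterByExpr by group, TMM factors, robust quasi-likelihood) in 1 model of all 10 libraries, 5 groups of 2, with Benjamini-Hochberg adjustment over 22504 genes. SE is the log2 change over the square root of F. With 2 against 2 libraries the smallest exact permutation p for a single gene is 0.333, so only the model's p-values are used.

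Named were fixed marker genes, the 15 highest and 15 lowest log2 changes at 5 CPM or more, the 12 largest gains and losses in CPM, up to 4 called members of each list per direction by p, members of lists with roles, up to 3 members not called, and 6 genes per direction shared by or opposite in the day 8 fractions at 20 CPM or more. Not all of these are described. Members, lists and rules were chosen with earlier results of these data known. Other genes named for a list without roles (Acta2, Ambn, Col1a1, Dspp, Gad2, Krt5, Krt14 and Trp63) were chosen after their values were seen. Alternatives were another normalization, filters, DESeq2 1.42.0, the replicate block, the compared libraries alone and each library left out. Those of the day 16 comparison were added after seeing the data.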

Additional observations from a re-analysis of the deposited data

Results flagged for a closer look

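For 21 of the genes named, day 8 Msx1-positive and Msx1-negative cells moved in opposite directions from ES cells, each past the threshold, and the difference between the fractions was itself past the threshold in edgeR's quasi-likelihood test. Both changes share the ES libraries, and the difference is larger than either change, so its call is not separate support. Values are log2 differences, Msx1-positive minus Msx1-negative. Higher than ES cells in the positive and lower in the negative fraction were Tgfb1 (3.77), Cpne8, a membrane-binding protein gene (3.62), Eln (2.95), Nab2, a co-regulator of EGR factors (2.78), S100a6 (2.39), Nes (2.24), Map2 (2.08) and Stat3 (1.62). Lower than ES cells in the positive and higher in the negative fraction were Mcf2 (-2.92), Tcl1 (-2.75), Klf2 (-2.42), Fbxo15, a target of Pou5f1 (-2.23), Manba, a lysosomal enzyme gene (-2.17), Nanog (-2.12), Apoe (-2.0), Gdf3 (-1.81), Pfkp (-1.74), Alpl (-1.69), Matn3 (-1.67), Nodal (-1.38) and Col18a1 (-0.89). The fractions differ in ES cell marker levels (656 and 665 CPM against 2222 and 2180), whose part in these differences was not tested. Exons of Nab2 overlap those of Gm16229, Nemp1 and Stat6, and reads cannot be divided between them without strand.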

How the results depend on the processing

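The total of 13843 called genes was 13874 with DESeq2's size factors in edgeR, 13853 with scaling by totals alone, 13863 without a filter, 11865 with at least 1 CPM in at least 4 libraries (fewer genes tested, 15405), 13367 with the 4 compared libraries alone and 13622 by DESeq2. Similar totals do not mean the same genes. Of the 13843 calls, 12518 (90.4%) were kept in the same direction with scaling by totals alone and 84.6% with at least 1 CPM in at least 4 libraries. The other settings of this list kept 94.7% to 98.4%. Replicate numbers did not pair the samples (r = -0.0139 between deviations), and a fit with the replicate number as a block called 13609. Leaving out 1 library each, with the lone sample assumed to vary like the other groups, gave 12454 to 12887 calls here, 10418 to 11112 between the day 8 fractions and 8579 to 9113 from day 8 to day 16. Of 2589 recomputed log2 changes of 236 named genes, 2555 kept their direction and their side of the threshold, 14 lost the call, 5 gained one and 15 turned sign, and 1235 of 1276 list counts stayed within 1.5 times. Signs turned for genes near 0. With scaling by totals alone Acan was at 0.0539, Acvr1b at 0.113, Lef1 at 0.0193, Lin28b at 0.127, Myh6 at 0.100 and Tmpo at 0.0561. Ptch1 was at -0.0333 with DESeq2's size factors and -0.0338 by DESeq2. With 1 library left out, Acan ranged from -0.342 to 0.0665, Acvr1b from -0.160 to 0.0222, Lin28b from -0.134 to 0.0234, Myh6 from -0.267 to 0.126 and Ptch1 from -0.124 to 0.135. The adjusted p of Tmpo was 0.050014 with the replicate block, 0.0854 with the 4 compared libraries alone, 0.165 without a filter and 0.104 to 0.284 without the second ES library or either day 8 library. Apart from scaling by totals, the cause was not tested. The 2 libraries per group and low counts limit the Hox, 2-cell-like and epidermal genes.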

Other observations

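Several gene groups outside the lineages described above also differed between day 8 Msx1-positive and ES cells, against shares of 34.6% higher and 26.9% lower among all genes. Of 18 immediate early genes, which respond to growth factors and to handling of cells, 13 rose and 3 fell (median 0.97). Fosb rose from 0.714 and 0.745 to 118 and 130.2 CPM (7.41 ± 0.099), Fosl2 from 7.0 and 6.88 to 85.8 and 96 (3.71 ± 0.086) and Jun from 18.4 and 17.4 to 148 and 158 (3.09 ± 0.072), while Nr4a1 fell from 72.6 and 68.2 to 38.9 and 42.5 (-0.79 ± 0.066). The day 8 cells were sorted and the ES cells are not described as sorted, and the part of the sort in these values was not tested. Day 8 Msx1-negative cells, which were sorted too, held Fosl2 at 9.25 ± 0.51 CPM and Fosb at 48.1 ± 1.41. Of 12 genes of MHC class I antigen presentation 10 rose and 1 fell (median 1.46), with H2-D1 at 12.4 and 12.2 against 51.7 and 53.1 CPM (2.09 ± 0.073) and H2-K1 at 38.9 and 37.6 against 80.9 and 81 CPM (1.08 ± 0.063). Of 12 hypoxia response targets 10 rose and 2 fell, P4ha1 by 1.67 ± 0.059, while Pdk1 fell from 277 and 265 to 104 and 111 CPM (-1.34 ± 0.057). The targets summed to 1647 and 1653 CPM in ES cells, 1779 and 1827 in Msx1-positive cells and 3379 and 3393 in day 8 Msx1-negative cells. In the negative cells 9 of 12 were called higher than in ES cells. Between the fractions 7 were lower in positive cells and 2 higher.

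All 15 genes of the 2-cell-like program tested rose, although each stayed under 5 CPM. The list summed to only 0.714 and 0.745 CPM in ES cells, and 7 of its genes had no ES count. Such genes passed the filter only through other groups and could not fall, so their direction was fixed in advance. The rest of the list was near 0 in ES cells too, with little room to fall. How far this set the count was not tested. All 15 were also called higher than ES in day 8 Msx1-negative cells. The Zscan4 and Usp17l genes of this list are near-identical copies whose reads may be divided among them in an unknown way, so single values are uncertain. Zscan4a had no ES count and stood at 3.81 and 3.04 CPM, at least 114-fold higher. Day 8 Msx1-negative cells held 1.8 ± 0.167 CPM of it and day 16 Msx1-positive cells 4.29 ± 0.614. Germline and maternal genes did not follow them, as 8 of 20 fell and 4 rose, with 5 falling under scaling by totals alone and without the second ES library. Ooep, a maternal gene, fell from 97.6 and 102 to 11 and 10.5 CPM (-3.21 ± 0.078), and Zp3 from 11.2 and 10.4 to 2.32 and 2.06 (-2.30 ± 0.22), while Taf7l rose from 4.03 and 5.1 to 17.4 and 14.7 (1.81 ± 0.14). Of 14 p53 target genes 4 rose and 5 fell, and 8 rose under scaling by totals alone.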
